A study of Mus musculus with 11 samples.

Results

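The thrombospondins Thbs1, Thbs2, Thbs3, Thbs4 and Comp, and the matricellular or adhesive matrix genes Postn, Sparc, Tnc, Spp1 and Fn1, were examined in whole pancreatic tumors. These 10 genes were chosen by name from the 54232 genes of the count table, with earlier results of these data known. Comp was included because its counts were higher in KO tumors. The KO against WT difference of Comp is therefore given as a description with no test.

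RNA was sequenced from 11 orthotopic tumors, 6 grown in PKN2 knockout hosts (KO, replicates A to F) and 5 in PKN2 wild-type hosts (WT, replicates A to E). All hosts were adult female C57BL/6 mice, heterozygous for Rosa26-CreERT2, a tamoxifen-activated Cre recombinase made in nearly all cell types. KO hosts were PKN2 fl/fl, WT hosts were PKN2 +/+, and both groups had the same tamoxifen treatment, so Cre activity and the drug are shared and the deletion is systemic in the host. Each pancreas received 1000 cells of TB32048, a pancreatic carcinoma line from a female mouse that keeps PKN2. A tumor piece thus mixes PKN2-intact cancer cells with host fibroblasts, macrophages, vessels and remaining pancreas. In such bulk samples, fewer cells of a type and less RNA per cell cannot be told apart.

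Matricellular proteins are secreted into the extracellular matrix and mainly regulate how cells attach to it and respond to growth factors, rather than bearing load. Thrombospondins fall into a trimeric subgroup (Thbs1 and Thbs2), which binds CD36 and CD47 and restrains vessel growth, and a pentameric subgroup (Thbs3, Thbs4 and Comp) that binds calcium and collagen and is best known from cartilage, tendon and muscle. In pancreatic cancer, fibroblasts are a main source of such proteins, and TGF-beta and YAP/TEAD activity are known inducers of several of them.

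Promoter sequences matched 7 of the 10 genes (RefSeq, GRCm38.p6; not Thbs1, Comp and Fn1), and the 250 bases before the start site are shown for Thbs2, Tnc and Postn, which varied together between tumors (described with the correlations). Capitals mark the letters TATAAA and the SMAD-type motif CAGACA, in either orientation.
Thbs2 (chr17:14694263-14694512, minus strand): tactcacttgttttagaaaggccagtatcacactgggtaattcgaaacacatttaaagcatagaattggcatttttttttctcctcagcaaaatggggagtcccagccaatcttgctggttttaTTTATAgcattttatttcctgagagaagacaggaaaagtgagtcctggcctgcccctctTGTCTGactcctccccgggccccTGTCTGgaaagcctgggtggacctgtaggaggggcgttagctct
Tnc (chr4:64047016-64047265, minus strand): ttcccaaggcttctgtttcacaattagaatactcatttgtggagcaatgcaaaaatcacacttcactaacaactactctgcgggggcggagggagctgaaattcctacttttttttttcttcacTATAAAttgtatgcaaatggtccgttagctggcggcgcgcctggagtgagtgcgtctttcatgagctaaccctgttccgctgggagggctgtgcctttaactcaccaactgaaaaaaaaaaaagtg
Postn (chr3:54360857-54361106, plus strand): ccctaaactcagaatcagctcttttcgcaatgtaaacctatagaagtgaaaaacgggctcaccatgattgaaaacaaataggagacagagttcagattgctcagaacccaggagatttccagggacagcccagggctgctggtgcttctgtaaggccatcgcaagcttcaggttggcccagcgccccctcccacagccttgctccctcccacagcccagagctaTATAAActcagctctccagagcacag
Of the 7 promoters, 4 held TATAAA and 4 held CAGACA, against 12.4% and 17.1% of 32851 promoters of the same length. Thbs2 and Spp1 held both, and Thbs2 had CAGACA at 67 and 44 bases before the start. Counted from the start, TATAAA lay at -26 in Postn, -126 in Thbs2 and Tnc, and -211 in Spp1. The start site used for Sparc, which held CAGACA, was 3103 bases from its annotated gene start. The TEAD motif GGAATG was found in 1 of the 7 (Thbs4, in a pair of overlapping matches) and in 12.6% of all promoters. TGANTCA, the AP-1 motif, and the CArG box were found in 0 of the 7, against 6.7% and 1.5% of all promoters. Both strands were searched for every motif, and the matches describe letters only.

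Libraries held 16294128 to 31121422 counts, so that 3 counts correspond to 0.0887 to 0.25 CPM (counts divided by the TMM-adjusted library size). Pkn2 itself was at 80.1 to 108 CPM in KO tumors and 62.9 to 138 CPM in WT tumors, which overlap, and since the cancer cells keep the gene this does not check the labels. WT replicates A, B and C stood apart, with correlations between transcript length and relative level of -0.505 to -0.176, against 0.122 to 0.407 in the other 8 tumors, and with ribosomal RNA at 1.31%, 6.39% and 1.40% of counts against at most 0.765%. Epithelial markers were present in all tumors, at a summed 2695 to 5447 CPM in KO and 3088 to 9373 CPM in WT. All 8 of these markers had a lower fitted mean in KO (median log2 fold change -0.8), while 48% of all tested genes had a higher one. At an unadjusted edgeR p under 0.05, 3 of the 8 were lower, against 15.5% of all tested genes. Residual pancreas was uneven: 8 islet genes, listed after values were seen, summed to 329 CPM in WT E, 83.8 in KO F and 66.1 in WT A, against at most 5.21 in the rest. The 8 acinar genes, listed in the same way, followed another order, at 1778 CPM in WT E, 632 in KO E, 188 in WT A and 91.7 in WT B, against at most 30.8 in the rest, with KO F at 10.6. The 10 fibroblast markers had a mean log2(CPM + 1) of 7.57 ± 0.48 in KO (SD, n = 6) and 7.22 ± 0.49 in WT (SD, n = 5), overlapping between groups, and the 10 macrophage markers had 7.98 ± 0.27 and 7.63 ± 0.18. The part of cell makeup in the results was not tested. After scaling to the fibroblast and to the macrophage markers, the log2 fold change (KO over WT) of Thbs1 was 0.27 and 0.11. It was 0.69 and 0.57 for Thbs2, 0.77 and 0.68 for Thbs3 and 0.82 and 0.74 for Tnc. For Fn1 it was 0.63 and 0.43, and for Spp1 -0.67 and -0.69. The same scalings moved the median of all tested genes to -0.36 and -0.37.

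Across the 10 genes, 8 had a higher fitted mean in KO tumors and 2 (Thbs4 and Spp1) a lower one. The 8 include Comp, which was chosen for its rise in KO, and 48% of all tested genes had a higher fitted mean. Of the 9 with a test, 0 passed an adjusted p of 0.05 (edgeR quasi-likelihood test, Benjamini-Hochberg over 16536 genes), as did 0.0181% of all tested genes on the higher side and 0% on the lower side. At an unadjusted p under 0.05, 4 of the 9 were higher (Thbs2, Thbs3, Tnc and Fn1) and 0 lower, against 8.57% higher and 15.5% lower of all tested genes. That count of 4 was 2 without WT A, with a covariate for ribosomal RNA or with scaling to fibroblast or macrophage markers, 1 with WT D and E alone against KO, and 5 without WT E. DESeq2 called 2 of the 9 higher, Thbs3 (adjusted p = 0.0176) and Tnc (adjusted p = 0.0482). Over all genes DESeq2 called 595 higher and 900 lower, against 3 and 0 in edgeR. None of the 10 had all KO tumors above or below all WT tumors (0 of 10), against 1.59% and 2.01% of all genes, and nothing is read from Comp in this count, since it was chosen on the same contrast. At the looser adjusted p of 0.1, chosen after seeing the data, Thbs3 was the only one of the 9 higher, against 1.96% of all genes. The median log2 fold change of all tested genes was -0.026. With WT D and E alone against KO, which leaves out WT A, B and C, 0 of the 9 passed in edgeR, and the log2 fold changes were 0.71 for Thbs2, 0.92 for Thbs3, 0.85 for Tnc and 0.36 for Fn1. With a correction for transcript length in each tumor they were 0.81, 0.96, 0.89 and 0.55.

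**Figure D1:**
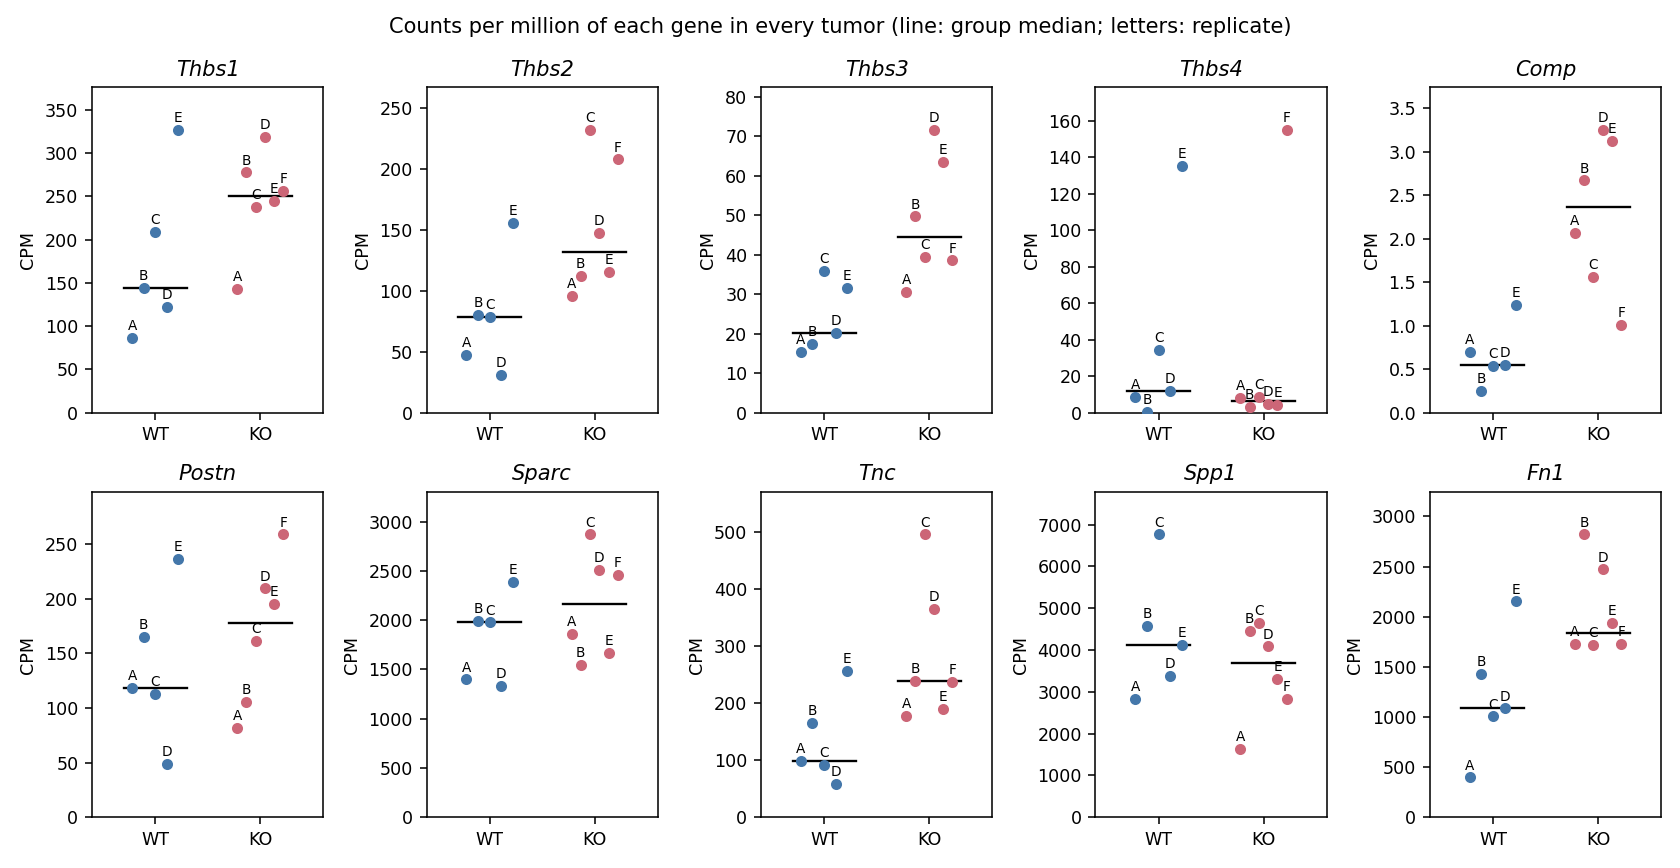
Level of each gene in CPM (linear axis from 0) in each of the 11 tumors; points are tumors with their replicate letter, and lines are group medians. For Thbs3 and Comp, 5 of 6 KO tumors lie above the highest WT tumor, and for Thbs4, KO F and WT E stand far above the rest.

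Thbs1 (ENSMUSG00000040152, chr2:118111876-118127133, plus strand), the trimeric thrombospondin that can activate latent TGF-beta, was at 86.8, 144, 209, 122 and 327 CPM in WT A to E. In KO tumors it ranged from 143 to 319 CPM with a median of 251. The groups overlapped, with WT E the highest of all 11 tumors, while 2 WT tumors (WT A and WT D) lay below the lowest KO tumor. The log2 fold change (KO over WT) was 0.47 with a standard error of 0.31 (95% interval -0.20 to 1.14, edgeR adjusted p = 0.364). It was 0.81 without WT E and 0.30 without WT A. Platelets are a known store of Thbs1 protein. Of 8 platelet genes, 3 passed the expression filter, and their list summed to 19.9 to 79.6 CPM in KO and 21.5 to 204 CPM in WT tumors. Pf4 made up most of that sum (mean 30.1 CPM in KO and 80.0 CPM in WT). The log2 fold changes of the 3 were -1.41 for Pf4, -0.14 for Ppbp and 0.64 for Itga2b.

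Thbs2 (ENSMUSG00000023885, chr17:14665500-14694235, minus strand), a fibroblast thrombospondin that shapes collagen fibrils, was at 47.3, 80.0, 78.4, 31.3 and 155 CPM in WT A to E. KO tumors ranged from 95.9 to 232 CPM with a median of 132, and every KO tumor was above the 4 lower WT tumors. WT E alone overlapped, lying above 4 of the KO tumors. Its log2 fold change was 0.95 (standard error 0.37, 95% interval 0.145 to 1.76, edgeR adjusted p = 0.153). Without WT E it was 1.36 (edgeR adjusted p = 0.0333). In that setting 608 of all genes were called higher and 1248 lower. With any other single tumor left out, the edgeR adjusted p of Thbs2 was 0.17 to 0.282.

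Thbs3 (ENSMUSG00000028047, chr3:89215180-89226837, plus strand), a pentameric thrombospondin of developing skeleton, was at 15.4, 17.4, 35.9, 20.2 and 31.6 CPM in WT A to E. Its KO values ran from 30.5 to 71.6 CPM with a median of 44.6. The lowest KO tumor (KO A) was below WT C and WT E, and the other KO tumors were above every WT tumor. Mean Thbs3 was 48.9 ± 15.9 CPM in KO (SD, n = 6) and 24.1 ± 9.13 in WT (SD, n = 5), a log2 fold change of 1.02 with a standard error of 0.28 (95% interval 0.41 to 1.63, edgeR adjusted p = 0.0928). Leaving out WT E gave 1.14 (edgeR adjusted p = 0.0379), and leaving out any other single tumor gave an edgeR adjusted p of 0.0746 to 0.185. Exons of Thbs3 overlap those of Mtx1 on the opposite strand over 6.59% of their length, and reads of the pair cannot be told apart where the counting ignored strand, a setting that is not given in the sources used here.

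Thbs4 (ENSMUSG00000021702, chr13:92751590-92794818, minus strand), a thrombospondin of tendon, muscle and vessels, differed most between tumors of the same genotype. It was at 8.72, 0.25, 34.6, 12.02 and 135 CPM in WT A to E, the value in WT B being 3 counts. In KO it was at 155 CPM in KO F and at 3.02 to 8.59 CPM in the other 5. The log2 fold change of -0.32 had a standard error of 1.22 (95% interval -2.96 to 2.32, edgeR adjusted p = 0.894). It was -2.73 without KO F and 1.13 without WT E (edgeR adjusted p = 0.193 and 0.558), so leaving out WT E turned its direction. KO F and WT E were also the tumors highest in the islet genes, but WT A, the next in islet genes, had Thbs4 at 8.72 CPM, and the correlation of Thbs4 with the islet genes (r = 0.789 over 11 tumors, centred within genotype) was 0.285 without the 2 most distant tumors. Acinar genes were low in KO F and high in KO E, where Thbs4 was at 4.27 CPM. The part of residual pancreas in the Thbs4 level was not tested.

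Comp (ENSMUSG00000031849, chr8:70373558-70382066, plus strand), cartilage oligomeric matrix protein, which links collagen fibrils, was the least abundant of the 10 genes, and its values were what placed it among them. WT A to E held 16, 3, 11, 14 and 42 counts, or 0.694, 0.25, 0.541, 0.548 and 1.24 CPM. KO A to F held 59, 76, 45, 80, 77 and 25 counts, or 2.07, 2.67, 1.57, 3.25, 3.13 and 1.01 CPM. The groups overlapped only through KO F, which was below WT E. Counting error alone was 11.2% to 20% of the value in KO tumors and 15.4% to 57.7% in WT tumors. The means were 2.28 ± 0.893 CPM (SD, n = 6) and 0.655 ± 0.365 CPM (SD, n = 5), a ratio of 3.48, and a log2 fold change of 1.75 (standard error 0.43). It was 1.34 with WT D and E alone against KO and 2.13 without WT E. Among 10 cartilage and tendon markers, 6 were below the expression filter, with Col9a1 at 0 counts in all tumors and Col2a1 at most 2, and the list summed to 49.9 to 118 CPM in KO and 54.1 to 131 CPM in WT tumors. Acan made up most of that sum (mean 59.9 CPM in KO and 45.7 CPM in WT).

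Tnc (ENSMUSG00000028364, chr4:63959785-64047015, minus strand), tenascin C, an anti-adhesive protein of wounds and tumor stroma, was at 98.8, 165, 92.5, 59.1 and 257 CPM in WT A to E. KO tumors ranged from 179 to 496 CPM with a median of 238. All 6 were above the 4 lower WT tumors, and 2 of 6 (KO C and KO D) were above WT E. Its log2 fold change was 1.08 (standard error 0.38, 95% interval 0.26 to 1.90, edgeR adjusted p = 0.126), and 1.46 without WT E (edgeR adjusted p = 0.0329). With any other single tumor left out, the edgeR adjusted p of Tnc was 0.132 to 0.224.

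Postn (ENSMUSG00000027750, chr3:54361109-54391037, plus strand), periostin, an integrin-binding protein of activated fibroblasts, was at 118, 165, 113, 49.0 and 236 CPM in WT A to E and 81.8 to 259 CPM in KO, with a KO median of 178. The groups overlapped over most of their range. Its log2 fold change was 0.31 (standard error 0.37, 95% interval -0.49 to 1.11, edgeR adjusted p = 0.632), and ran from 0.095 without WT D to 0.60 without WT E. Sparc (ENSMUSG00000018593, chr11:55394500-55423183, minus strand), osteonectin, a collagen-binding protein of fibroblasts, was at 1400, 1993, 1977, 1336 and 2389 CPM in WT A to E and 1544 to 2872 CPM in KO, with a KO median of 2160. Both genotypes spanned much the same levels, at a log2 fold change of 0.24 (standard error 0.24, 95% interval -0.27 to 0.76, edgeR adjusted p = 0.548). That value was 0.13 without KO C and 0.36 without WT E. After scaling to the fibroblast markers Sparc was at -0.10 and Postn at 0.05.

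Spp1 (ENSMUSG00000029304, chr5:104435118-104441050, plus strand), osteopontin, a secreted ligand of integrins and CD44 made by macrophages and cancer cells, was the most abundant member. It was at 2836, 4583, 6766, 3379 and 4124 CPM in WT A to E, and 1629 to 4643 CPM in KO with a median of 3698. The lowest value was that of KO A and the highest that of WT C. Exons of Spp1 overlap those of Gm42793, on the same strand, over 18.75% of their length, where reads cannot be assigned to either. Its log2 fold change was -0.31 (standard error 0.31, 95% interval -0.98 to 0.35, edgeR adjusted p = 0.551). It was -0.09 without WT C and -0.17 without KO A, and -0.075 with the correction for transcript length. Macrophage markers summed to 3693 to 6376 CPM in KO and 3209 to 6254 CPM in WT tumors.

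Fn1 (ENSMUSG00000026193, chr1:71585520-71653200, minus strand), fibronectin, the adhesive glycoprotein on which collagen and tenascin networks assemble, was at 397, 1432, 1006, 1086 and 2152 CPM in WT A to E. KO tumors ranged from 1719 to 2822 CPM with a median of 1833. As with Thbs2 and Tnc, every KO tumor was above the 4 lower WT tumors and WT E lay among the KO values. The KO mean exceeded the WT mean by 0.77 on the log2 scale (standard error 0.35, 95% interval 0.02 to 1.52, edgeR adjusted p = 0.198), and by 0.54 without WT A and 1.08 without WT E.

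**Figure D2:**
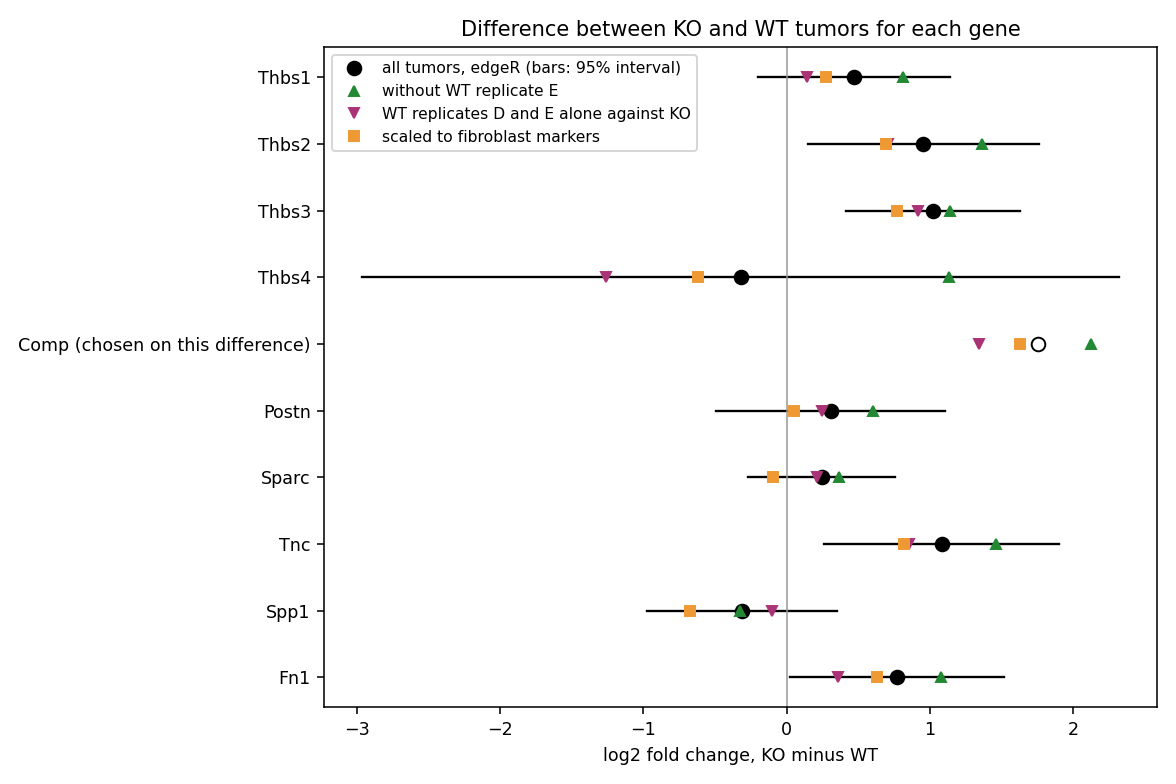
The log2 fold change (KO minus WT) of each gene on the horizontal axis, with all tumors (black, bars are 95% intervals; Comp open and without an interval because it was chosen on this difference), without WT E, with WT D and E alone, and after scaling to fibroblast markers. All genes except Thbs4, Sparc and Spp1 lie above 0 in all 4 settings. Spp1 lies below 0 in all 4, Sparc is below 0 after scaling and Thbs4 turns above 0 without WT E.

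The order of levels was compared per exon length (RPKM, CPM per kilobase of exon), as means over the 11 tumors. Spp1 (2353 RPKM) was above Sparc (528), and Sparc above Fn1 (144), with no overlap of the ranges. Thbs1 (35.5), Tnc (27.9), Postn (17.7) and Thbs2 (16.9) followed, and neighbors in this run overlapped. Fn1 was above Thbs1 in 11 of 11 tumors, although their ranges overlapped. Thbs1 was above Tnc in 10 of 11 tumors and Postn above Thbs2 in 8 of 11. Thbs4 (10.4) had a mean above Thbs3 (7.80) through WT E, KO F and WT C, and was above it in 3 of 11 tumors. Comp (0.52) was below every other range except that of Thbs4. Within the family of 5 thrombospondins, Thbs1 made up 51.0 ± 10.2% of the summed RPKM in KO (SD, n = 6) and 54.6 ± 7.41% in WT (SD, n = 5). Thbs2 made up 26.6 ± 6.90% and 20.7 ± 6.30%, and Comp 1.04 ± 0.489% and 0.454 ± 0.264%.

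**Figure D3:**
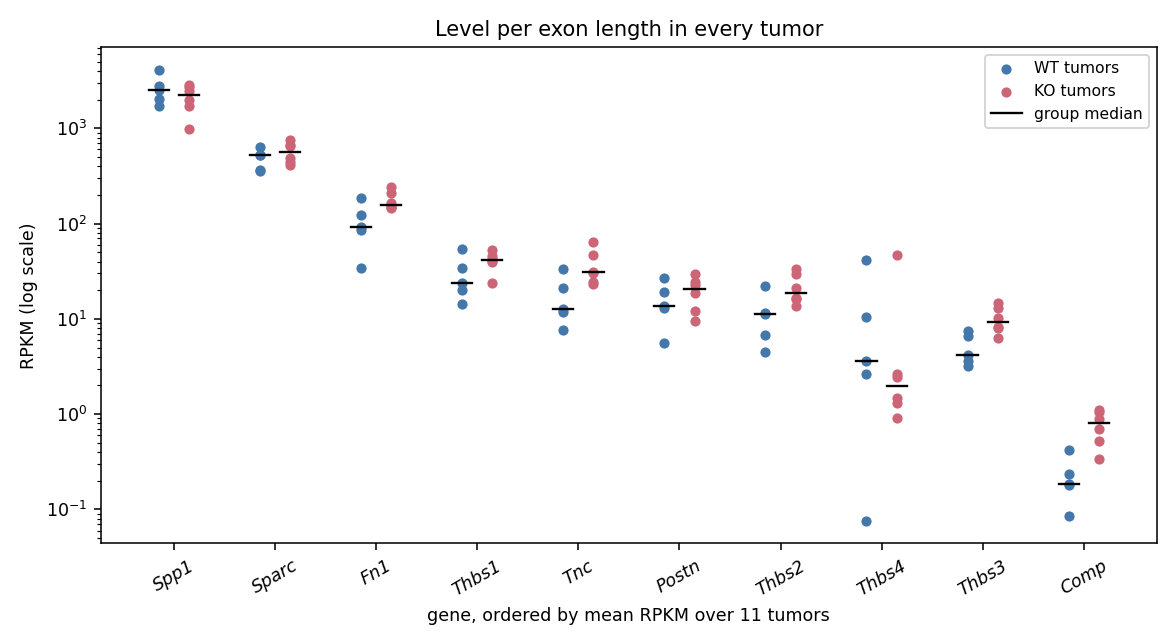
Level per exon length (RPKM, log axis) of each gene, ordered by its mean over 11 tumors; points are single tumors and lines are group medians. Spp1, Sparc and Fn1 lead, and Comp, at 0.52 RPKM on average, is the lowest.

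How the genes varied from tumor to tumor was described by correlations of log2 CPM centred within each genotype, over 11 tumors that share their libraries, depth and cell makeup. Of the 45 pairs, 41 had a positive r, with a median of 0.401. The closest were Thbs2 with Sparc (r = 0.893, rho = 0.845), Thbs2 with Tnc (0.857, rho = 0.818) and Thbs2 with Postn (0.822, rho = 0.818). Leaving out the 2 most distant tumors, r was 0.891, 0.678 and 0.611. With the fibroblast marker mean, r was 0.913 for Thbs2, 0.884 for Sparc and 0.833 for Tnc, and lower for Thbs3 (0.17) and Comp (-0.18). Comp and Sparc had r = -0.195. The genes closest to Comp among 14898 were Col13a1 (0.910, rho = 0.764), Ighmbp2 (0.892, rho = 0.836) and Ddit4 (0.890, rho = 0.9). Those closest to Thbs2 were Draxin (0.964), Hic1 (0.934) and Col5a3 (0.933). Those closest to Sparc were Fstl1 (0.964), Tsku (0.962) and Lgi3 (0.937). These genes were picked as the highest of 14898 r values, each over 11 tumors, and were not tested. Comp itself rests on 3 to 80 counts.

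**Figure D4:**
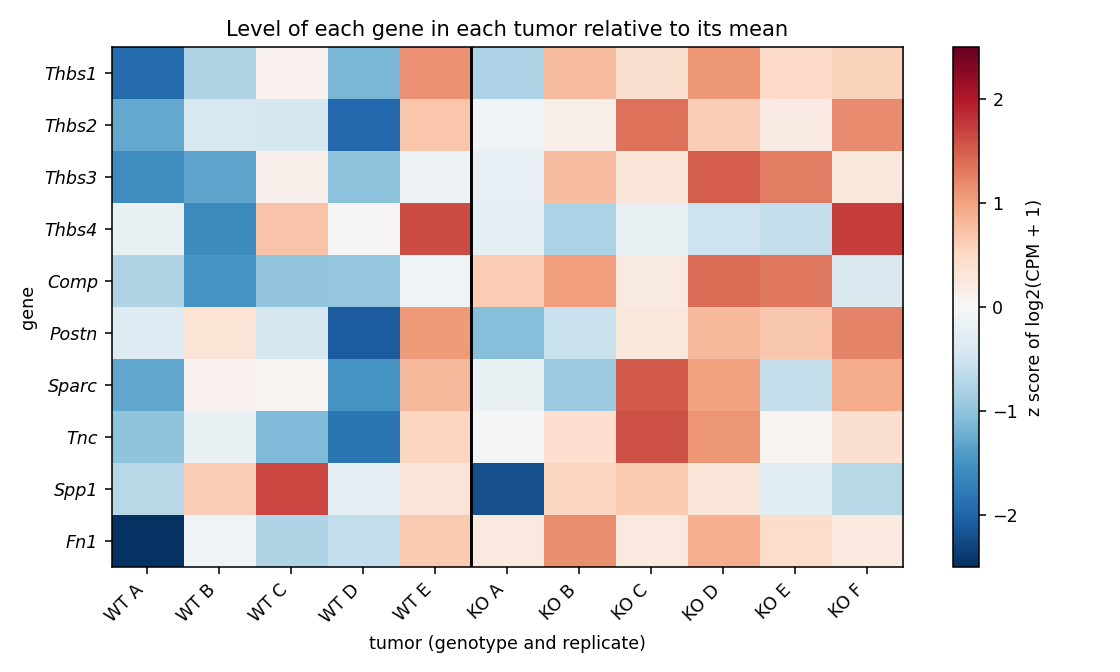
Colour gives the z score of log2(CPM + 1) of each gene (row) in each tumor (column), with WT left and KO right of the line. WT E is high for Thbs1, Thbs4 and Postn, while WT A and WT D are low for most genes.

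**Figure D5:**
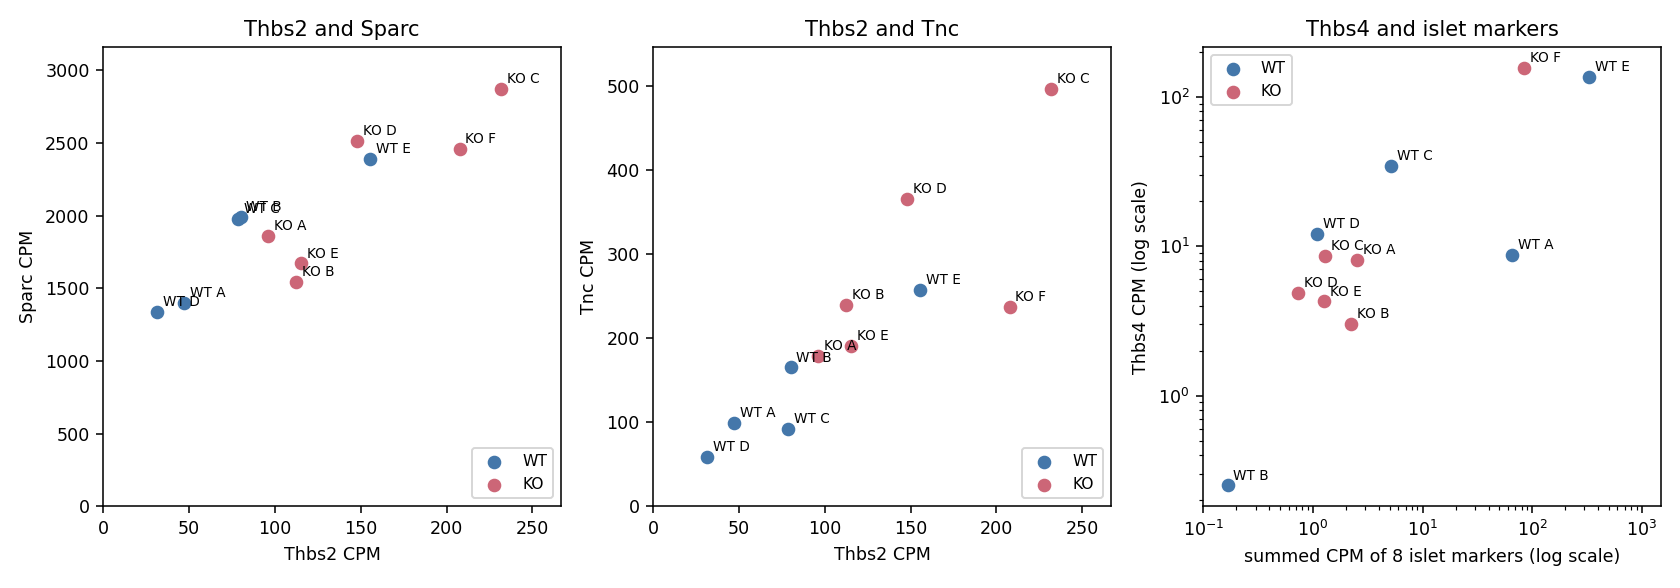
CPM of Sparc and Tnc against Thbs2 (linear axes), and of Thbs4 against the summed CPM of 8 islet genes (log axes), 1 point per tumor. Sparc and Tnc mostly rise with Thbs2, though KO F, at 208 CPM of Thbs2, is below WT E for Tnc (237 against 257 CPM). KO F and WT E are high in both Thbs4 and the islet genes, while WT A is high in the islet genes only.

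The receptors, partners and inducers of these proteins were taken from lists, and 0 genes in each passed an adjusted p of 0.05 in edgeR. Among 28 other matricellular genes, 19 were tested, 15 with a higher and 4 with a lower fitted mean in KO tumors (median log2 fold change 0.355). At an unadjusted p under 0.05, 1 was higher (Tgfbi, log2 fold change 0.555) and 0 lower. By log2 fold change, Tnxb, tenascin X (0.82), and Fbln5, an elastic fiber protein (0.56), were highest, and Vtn, vitronectin (-0.31), and Ccn5 (-0.19) lowest. Of 23 receptors, 22 were tested, 18 higher and 4 lower (median 0.337), with 4 higher and 0 lower at an unadjusted p under 0.05. Those 4 were Itga8, Lrp1, Itga9 (0.68) and Itgb1 (0.52). Itga8, an integrin subunit that binds fibronectin, tenascin C and osteopontin, had the highest log2 fold change of 1.49, and Lrp1, the endocytic receptor of thrombospondins, had 0.98 (edgeR adjusted p = 0.0928 for each). Lrp1 was the 1 receptor of 22 with no overlap between groups, against 1.59% (higher) and 2.01% (lower) of all genes. Itgb6 (-0.91), the epithelial TGF-beta-binding integrin, and Sdc4, a syndecan (-0.345), were lowest.

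Of 18 partners and proteases of Comp, 14 were tested, 11 higher and 3 lower (median 0.484), and 2 were higher and 0 lower at an unadjusted p under 0.05. Those 2 were Adamts12 and Bmp1 (0.64). By log2 fold change, Adamts12, a protease that cleaves Comp (0.86), and Fmod, fibromodulin (0.83), were highest. Col14a1 (-0.46) and Mmp13, a collagenase (-0.22), were lowest. All 17 inducers and activation genes were tested, 16 higher and 1 lower (median 0.394), and 3 were higher and 0 lower at an unadjusted p under 0.05. Those 3 were Tgfb3 (0.73), Il13ra1 and Il4ra (0.58). By log2 fold change, Tgfb2 (0.74) and Il13ra1, a subunit of the IL-13 receptor (0.74), were highest. Smad7, the inhibitory SMAD (-0.26), and Smad2 (0.03) were lowest. The background at that cutoff is the 8.57% and 15.5% given above. For the counts of higher fitted means in each list, it is 48% of all tested genes. The lists, too, were chosen with earlier results of these data known. The fibroblast marker genes had a median log2 fold change of 0.357, with 8 of 10 higher, which is of the size of these medians, and the part of the fibroblast content in them was not tested.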

How the data were processed

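Whole-tumor RNA libraries were made with a directional kit and sequenced in pairs. The authors trimmed reads with Trimmomatic, aligned them to GRCm38 with HISAT2 (version 2.1.0), counted unique alignments over exons with HTSeq (version 0.11.2), and deposited raw counts per gene. The strand setting of the counting is not given in the sources used here. They also deposited a normalised signal, which is the raw count divided by a factor per sample and was not used in tests. Symbols and exon lengths came from GENCODE M21, which named 54165 of the 54232 genes.

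Differences were tested on the raw counts with edgeR (version 4.0.16, R version 4.3.3), the quasi-likelihood test, TMM normalisation, filterByExpr and Benjamini-Hochberg adjustment over 16536 genes, with an adjusted p threshold of 0.05. The 95% intervals use the standard error and the total degrees of freedom of the quasi-likelihood test, which add its prior ones to the residual ones. Correlations used a pseudocount of 0.5 CPM and the z scores and marker means 1 CPM. The script was tested on simulated data. The alternatives included DESeq2 (version 1.42.0). Tumors were grouped by the genotype in the sample titles, and the labels give no batch. No libraries agreed within sampling noise (lowest chi-square per degree of freedom 33.9), and each tumor was counted as 1 replicate. Members and gene lists were chosen with earlier results of these data known. Genes named from lists were the 2 highest and 2 lowest log2 fold changes in each. Genes of these lists at an unadjusted p under 0.05 were also named. Likeness was named for Comp, Thbs2 and Sparc.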

Additional observations from a re-analysis of the deposited data

Results flagged for a closer look

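Among the 20 gene and group combinations checked for a tumor far from the others of its group, of which chance gives about 1, 2 stood out on the log2(CPM + 1) scale. Thbs1 was at 143 CPM in KO A, below the other KO tumors, with a gap on that scale of 0.632 of the group's range. Thbs4 was at 155 CPM in KO F, above the other KO tumors, with a gap on that scale of 0.762 of the range.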

How the results depend on the processing

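The result depends most on single tumors and on the tool. Of the 9 genes with a test, edgeR called 0, DESeq2 called 2 (Thbs3 and Tnc) and the looser threshold of 0.1 called 1 (Thbs3); leaving out 1 tumor at a time gave 0 to 3, the 3 without WT E. Over all genes, 3 were called higher and 0 lower; DESeq2 gave 595 and 900, no expression filter 39 and 6, at least 10 counts in every tumor 0 higher (1183 at an unadjusted p under 0.05), the ribosomal RNA covariate 0 higher (722), the length offset 67 and 29, scaling to fibroblast markers 95 and 235, scaling to macrophage markers (chosen after seeing the data) 141 and 2588, WT D and E alone 3 lower, and leaving out 1 tumor 0 to 608 higher and 0 to 1248 lower. Without WT D it gave 203 and 651, without WT E 608 and 1248, and without KO F 30 and 2. Of the 10 genes, 0 had no overlap between groups. With fibroblast scaling 1 did not overlap (Thbs2, against 0.327% of all genes on the higher side). With a tumor left out, 0 to 4 did not overlap: Thbs2, Tnc and Fn1 without WT E (4.41% of all genes) and Thbs3 without KO A (2.09%). Comp, chosen on this contrast, is counted among the 4 without WT E and is the 1 without KO F, and nothing is read from it. These scalings moved the median of all genes to -0.36 and -0.37. Directions turned for Sparc, to -0.10 and -0.12 after fibroblast and macrophage scaling, for Postn, to -0.033 after macrophage scaling, and for Thbs4, to 1.13 without WT E, against -2.73 without KO F. The shared replicate letters belong to different animals: same-letter correlations ran from -0.161 to 0.149 and 1 of 5 tumors was closest to its own letter, and a replicate block called 0 of the 9 genes and 8 genes higher and 1 lower overall. Depth limits Comp most, at 3 to 80 counts.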
